A study of Mus musculus with 18 samples.

Results

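The transcripts of the mitochondrial genome were described across every library of the series. The members were all rows of the deposited count table whose symbol began with mt- and whose chromosome was chrM, which gave 30 of 29112 genes: 2 rRNA genes, 13 protein genes and 15 tRNA genes. The GENCODE annotation of the GRCm39 mouse genome lists 37 such genes, and the other 7 tRNA genes (mt-Tn, mt-Tc, mt-Ty, mt-Ts1, mt-Tg, mt-Th and mt-Ts2) were not analysed here. RNA sequencing covered 18 libraries, 3 in each of 6 groups, from cells that the labels call HL-1, a line derived from a mouse atrial tumour. The study asked which genes respond to miR-200a-3p, a microRNA, in these cells in high glucose.

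One group received vehicle and one received high glucose, both without transfection. The other 4 groups were all treated with high glucose and transfected, with the miR-200a-3p inhibitor, with its negative control (inhibitor control), with the miR-200a-3p mimic or with its negative control (mimic control). Transfected cells were collected at 48 h. The sources used here give no glucose concentration or exposure time and do not say whether the first 2 groups received transfection reagent. The labels name no separate cultures within a group, so a p-value here reflects only how these libraries varied, which may be technical. The untransfected pair of groups, the inhibitor pair and the mimic pair may have been handled apart. In comparisons between pairs, transfection and handling cannot be told apart.

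The mitochondrial genome is a small circle that is transcribed from both strands into long precursor RNAs. Most of its genes are cut out of a precursor read from the heavy strand, while mt-Nd6 and several tRNAs come from the opposite strand. The tRNAs lie between the other genes and mark the sites where the precursor is cut, and the mRNAs and rRNAs then receive A tails of differing length. The protein genes encode core subunits of the respiratory chain and of ATP synthase, on which beating heart muscle depends, and the rRNAs form the mitochondrial ribosome that translates them.

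The labelled cell type was compared with its markers. Cardiomyocyte markers summed to 115 to 495 CPM (read counts scaled to library size) over 15 genes, with Gja1, a gap junction gene of many cell types, at 59.8 to 429 CPM and Tnnt2, the cardiac troponin T gene, at 14.2 to 79.3 CPM. The cardiac transcription factor genes Gata4 and Mef2c stood at 8.30 to 13.1 and 1.69 to 17.2 CPM. The atrial hormone gene Nppa had 2 reads over all 18 libraries. Myh6, Myl2 and Pln, which serve contraction and calcium handling in heart muscle, reached at most 0.204, 0.0563 and 0.0277 CPM. Fibroblast markers, among them the collagen gene Col3a1, summed to 10600 to 12110 CPM in the untransfected libraries, to 2439 to 2614 CPM in the inhibitor and inhibitor control libraries and to 1054 to 1098 CPM in the mimic and mimic control libraries. Macrophage markers reached 1139 CPM in mimic replicate 2 and at most 67.3 CPM in any other library, so values without that library are given beside the main results of the mimic. The fibroblast marker sum differed between the untransfected, inhibitor and mimic pairs of groups, as did the rRNAs described below, but in another order. The sum was lowest in the mimic pair, and the rRNA share of mitochondrial reads was lowest in the inhibitor pair. Col3a1 gave most of the sum in vehicle (mean 8954 CPM), and not every listed marker followed it. Thy1 and Postn stood at 0.824 and 0.431 CPM in high glucose against 1.04 and 1.92 CPM in inhibitor control. The part of these markers in the rRNA results was not tested. In bulk RNA, fewer cells of a type and less RNA per cell cannot be told apart, and neither can fewer mitochondria per cell and less RNA per mitochondrion.

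Of the 30 members, 25 lie on the plus strand of chrM and 5 on the minus strand (mt-Nd6, mt-Tq, mt-Ta, mt-Te and mt-Tp). Only uniquely mapped reads were counted, with 4 mismatches allowed, per the labels' protocols, and the nuclear genome holds copies of some members. In GRCm39, chrM:6390-11042 is matched at chr1:24650616-24655269 on the minus strand with 99.94% identity over 4654 aligned positions. The 2 copies differ there by 2 substitutions and 1 inserted base. The sequences around these 3 places are shown because they hold the whole difference between a mitochondrial and a chromosome 1 read in this stretch. Positions count from 1 at the start of chrM, the mitochondrial base stands first, and capitals mark the substituted base (A6393T in mt-Co1, T9461C in mt-Nd3). The inserted base falls in mt-Tr, so that the printed stretch is 42 bases long on chromosome 1 against 41, and it carries no capitals. The mitochondrial stretches are chrM:6390-6413, chrM:9441-9481 and chrM:9808-9848 on the plus strand, and the copies are chr1:24655246-24655269, chr1:24652178-24652218 and chr1:24651810-24651851 on the minus strand.
mitochondrial genome at 6393: ggaAttgttttatccaactcatcc
chromosome 1 copy at 6393: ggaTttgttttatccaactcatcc
mitochondrial genome at 9461: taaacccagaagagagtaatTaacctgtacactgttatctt
chromosome 1 copy at 9461: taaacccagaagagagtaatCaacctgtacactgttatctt
mitochondrial genome at 9828: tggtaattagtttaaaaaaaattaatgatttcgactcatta
chromosome 1 copy at 9828: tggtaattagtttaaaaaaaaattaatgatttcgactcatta

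The chromosome 1 stretch spans 6 whole protein genes: mt-Co2 and mt-Co3 (cytochrome c oxidase), mt-Atp8 and mt-Atp6 (ATP synthase), and mt-Nd3 and mt-Nd4l (complex I). All windows of 150 bases, the read length in the labels, within mt-Co2, mt-Atp8, mt-Atp6, mt-Co3 and mt-Nd4l had an identical nuclear copy, as did 98.5% of the windows in mt-Nd3. The share was 59.2% for mt-Nd4 and 23.6% for mt-Co1 (85.7% within 4 mismatches). It was 0% for mt-Nd1, mt-Nd2, mt-Nd5, mt-Nd6, mt-Cytb and both rRNA genes, of which at most 15.4% (mt-Rnr2) matched within 4 mismatches.

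Levels per length followed this division. In FPKM (fragments scaled to gene length and library size), mt-Cytb, the cytochrome b subunit of complex III, lay between 1470 and 4899 and mt-Co1, the catalytic subunit of cytochrome c oxidase, between 728 and 2804 over the 18 libraries. mt-Nd1, mt-Nd2 and mt-Nd5, which encode membrane subunits of complex I, reached up to 2561, 2653 and 1163 FPKM. By contrast mt-Co3 lay between 1.76 and 4.96 FPKM and mt-Nd3 between 0 and 0.56 FPKM. The products of mt-Co1, mt-Co2 and mt-Co3 work in 1 enzyme, yet the first had 1942481 reads over all libraries, mt-Co2 5477 and mt-Co3 1599. The levels of the 6 copied genes are therefore not comparable with those of the others, and how many of their reads arose from either genome was not tested.

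**Figure D1:**
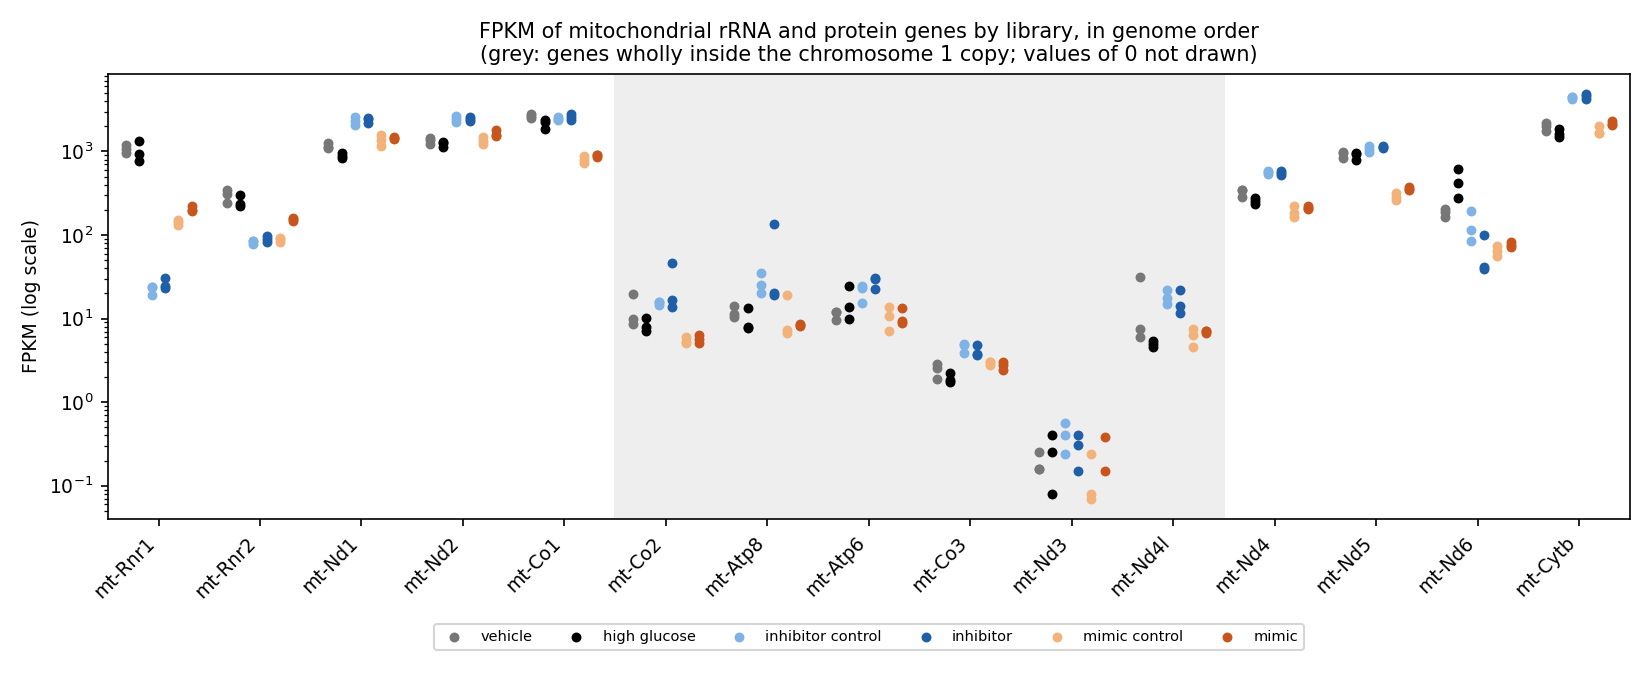
FPKM (log scale, vertical axis) of the 2 rRNA and 13 protein genes in genome order (horizontal axis), with 1 point per library coloured by group and genes wholly inside the chromosome 1 copy on grey. The copied genes lie far below their neighbours in every group, with mt-Co3 at 1.76 to 4.96 FPKM and mt-Co1 at 728 to 2804 FPKM.

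Single libraries stood out among the copied genes and their chromosome 1 counterparts. mt-Atp8 had 1028 reads in inhibitor replicate 1 against 156 and 138 in the other 2, and mt-Co2 had 1138 reads in inhibitor replicate 3 against 422 and 360. mt-Nd4l had 342 reads in vehicle replicate 1 against 82 and 63. In the chromosome 1 copy, the pseudogene Gm28661 had 1616 reads in inhibitor control replicate 2 against 165 and 143, and Gm10925 had 2874 reads in inhibitor replicate 1 against 929 and 568. The highest library exceeded the group's median by more than 2 times in 5 of 30 gene and group pairs for copied genes, in 5 of 41 for the chromosome 1 pseudogenes and in 1 of 54 for the other rRNA and protein genes.

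All 18 libraries held between 33655916 and 37928790 counted reads. Mitochondrial genes took 1.32, 1.38 and 1.19% of them in vehicle and 0.975, 1.14 and 1.24% in high glucose. The share was 1.69, 1.76 and 1.81% in inhibitor control and 1.88, 1.86 and 1.69% in inhibitor. It was 0.809, 0.670 and 0.691% in mimic control and 0.840, 0.841 and 0.893% in mimic. The inhibitor pair thus lay above the untransfected libraries, and the mimic pair below them, without overlap.

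Compared with high glucose (1.12% ± 0.134, SD, n = 3), the share was 0.635 percentage points higher in inhibitor control (1.75% ± 0.0619) and 0.395 points lower in mimic control (0.723% ± 0.0746). Each gave p = 0.1 in a two-sided exact permutation test, the smallest that 3 against 3 libraries allow, and p = 0.15 after adjustment over the 6 comparisons. These comparisons share the high glucose libraries. The share was 0.135 points higher in mimic (0.858% ± 0.0305) than in mimic control (exact permutation p = 0.1, adjusted 0.15), with no overlap, and 0.143 points higher without mimic replicate 2. It was 0.0553 points higher in inhibitor than in its control and 0.178 points lower in high glucose than in vehicle, and in both cases the libraries overlapped (exact permutation p = 0.5 and 0.2).

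The rRNA genes gave 11.1 to 12.6% of mitochondrial reads in vehicle and 11.1 to 14.3% in high glucose. They gave 0.881 to 0.942% in inhibitor control, 0.946 to 1.03% in inhibitor, 3.61 to 4.30% in mimic control and 4.78 to 5.61% in mimic. Protein genes made up nearly all of the rest, since the tRNA genes gave 0.0331 to 0.0886% of mitochondrial reads. The log2 ratio of rRNA to protein gene reads was -2.83 ± 0.22 (SD, n = 3) in high glucose, -6.76 ± 0.05 in inhibitor control and -4.63 ± 0.14 in mimic control, each pair without overlap (exact permutation p = 0.1, adjusted over 6 comparisons 0.12). It was -4.18 ± 0.12 in mimic, 0.45 above mimic control (0.44 without mimic replicate 2), and -6.67 ± 0.07 in inhibitor, 0.10 above inhibitor control. Both differences were without overlap (exact permutation p = 0.1, adjusted 0.12).

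**Figure D2:**
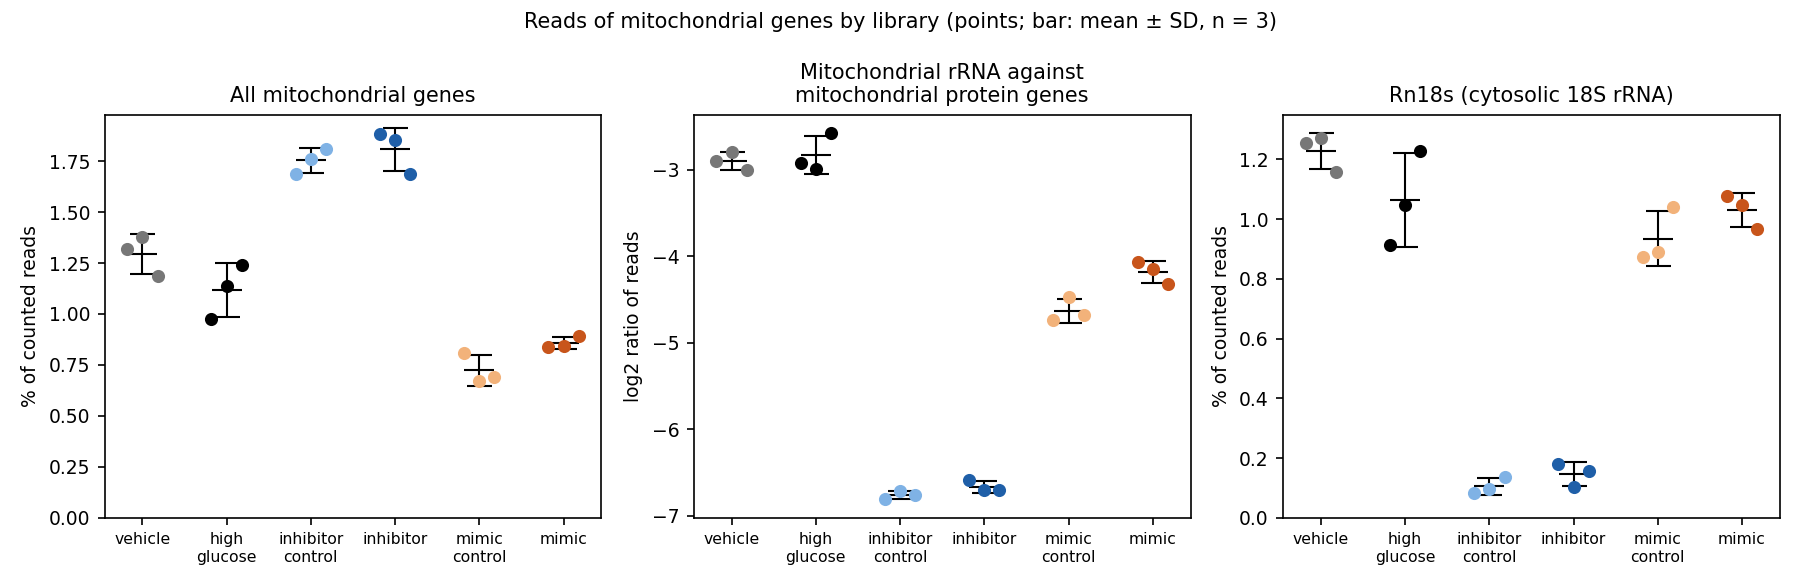
Per-library share of counted reads from all mitochondrial genes (left), log2 ratio of mitochondrial rRNA to mitochondrial protein gene reads (middle) and share of reads from Rn18s (right), with points for libraries and bars for mean ± SD (n = 3). The inhibitor pair has the highest mitochondrial share, 1.69 to 1.88%, and the lowest Rn18s share, 0.0841 to 0.181%.

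Rn18s, the cytosolic 18S rRNA gene, was lower in the inhibitor pair too. It took 0.874 to 1.27% of reads in the vehicle, high glucose, mimic control and mimic libraries but 0.0841 to 0.181% in the inhibitor control and inhibitor libraries. The nuclear RNAs Malat1, Neat1 and Xist moved the other way, with means of 2197, 1051 and 1214 CPM in inhibitor control against 450, 76.6 and 31.6 CPM in high glucose. In mimic control they were 191, 18.4 and 108 CPM. The part of these RNAs in the lower mitochondrial rRNA was not tested. The labels name an mRNA kit, and rRNAs lack the long A tails of most mitochondrial mRNAs. How far rRNA reads follow rRNA levels was not tested. In the mimic pair, Rn18s stood at 0.874 to 1.08%, against 0.915 to 1.23% in high glucose, while the mitochondrial rRNA ratio was lower than in high glucose.

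mt-Rnr1, the small-subunit rRNA (12S; chrM:70-1024), had the lowest log2 fold change of the 19 tested members in inhibitor control against high glucose. It stood at 1042, 1118 and 901 CPM in vehicle and at 733, 894 and 1237 CPM in high glucose, and these groups overlapped. It stood at 18.6, 23.3 and 23.4 CPM in inhibitor control and 29.3, 23.5 and 22.6 CPM in inhibitor. In mimic control it was 160, 155 and 140 CPM and in mimic 225, 198 and 198 CPM. The 3 levels, untransfected, mimic pair and inhibitor pair, did not overlap.

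mt-Rnr2, the large-subunit rRNA (16S; chrM:1094-2675), stood at 490, 523 and 378 CPM in vehicle and 375, 358 and 474 CPM in high glucose. It was 125, 136 and 137 CPM in inhibitor control, 157, 146 and 132 CPM in inhibitor, 158, 164 and 145 CPM in mimic control, and 269, 256 and 252 CPM in mimic. The mimic libraries thus lay between the untransfected libraries and the other 3 transfected groups. The log2 ratio of mt-Rnr1 to mt-Rnr2 reads was 0.97 to 1.38 in high glucose, -0.08 to 0.01 in mimic control and -2.74 to -2.55 in inhibitor control, so mt-Rnr1 fell by the larger factor.

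**Figure D3:**
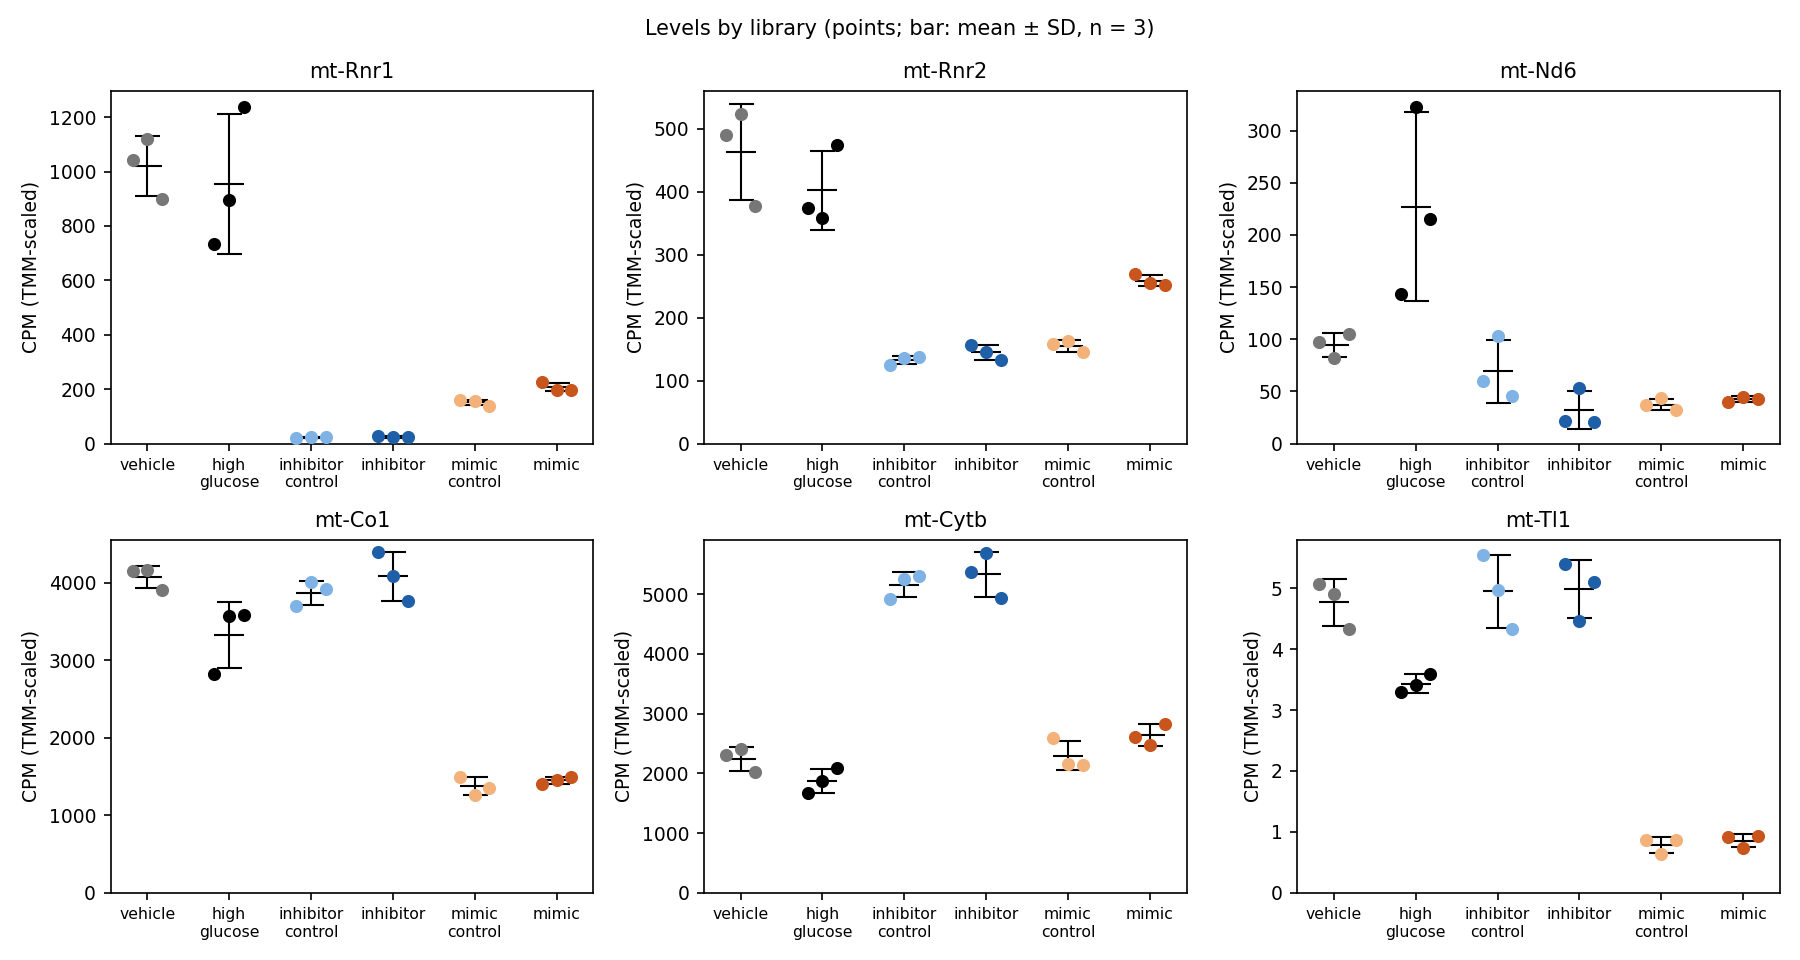
CPM scaled by TMM (vertical axes, from 0) of 2 rRNA genes, 3 protein genes and 1 tRNA gene by group, with a point per library and bars for mean ± SD (n = 3). mt-Rnr1 is at 18.6 to 29.3 CPM in the inhibitor pair and 733 to 1237 CPM in untransfected libraries, while mt-Cytb is highest in the inhibitor pair.

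Of the 30 members, 19 passed the filter on low counts and entered the edgeR test: both rRNA genes, 12 protein genes (all but mt-Nd3, with 0 to 7 reads a library) and 5 tRNA genes. In high glucose against vehicle, 5 of 12 mitochondrial mRNAs tested were called lower, mt-Nd6 was called higher and 6 were not called. Among the 19 tested members 1 was called higher and 6 lower, where 12% of all 15074 genes tested were called higher and 12.2% lower. Leaving out single libraries gave 4 to 8 members called lower. The median log2 fold change was -0.30 over the 12 protein genes and -0.0048 over all genes tested.

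mt-Nd1 stood at 1102, 1164 and 1055 CPM in vehicle, and high glucose had 802, 848 and 911 CPM, without overlap. It fell by 0.38 ± 0.09 (log2, SE; edgeR adjusted p = 0.00453). mt-Nd4, another complex I subunit, fell by 0.35 ± 0.09 (edgeR adjusted p = 0.00626) and mt-Co1 fell by 0.29 ± 0.08 (edgeR adjusted p = 0.0104). The call of mt-Co1 was lost without high glucose replicate 1, where its log2 fold change was -0.18 and its adjusted p 0.0692, the highest of a range from 0.000341 over 16 alternatives.

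mt-Cytb fell by 0.26 ± 0.09 (edgeR adjusted p = 0.0356), but its groups overlapped, and the call was lost when vehicle replicate 1, vehicle replicate 2, high glucose replicate 1 or high glucose replicate 2 was left out, with log2 fold changes of -0.23, -0.20, -0.18 and -0.25. It was also lost with the compared groups alone (-0.25) and with limma (-0.27). mt-Nd4l, a copied gene, fell by 1.60 ± 0.44 (edgeR adjusted p = 0.0118). That value rested on vehicle replicate 1, since it was -0.43 without it and not called. The leucine tRNA gene mt-Tl1 stood at 5.07, 4.90 and 4.33 CPM in vehicle and 3.29, 3.41 and 3.60 CPM in high glucose, and fell by 0.47 ± 0.12 (edgeR adjusted p = 0.00827). Neither rRNA gene was called, at -0.10 ± 0.14 for mt-Rnr1 and -0.21 ± 0.10 for mt-Rnr2. Both were called lower without high glucose replicate 3, with values of -0.32 and -0.34, and mt-Rnr2 also without vehicle replicate 3 (-0.33) and with a correction for GC content and length (-0.35). mt-Atp6 was at 0.52 ± 0.27 and was called higher without high glucose replicate 3 (0.78).

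mt-Nd6 (chrM:13552-14070, minus strand), a complex I subunit and the only protein gene read from the opposite strand, stood at 97.3, 82.1 and 105 CPM in vehicle and 144, 323 and 215 CPM in high glucose. The high glucose libraries were all higher and more spread. It rose by 1.26 ± 0.31 (log2, SE; edgeR adjusted p = 0.00466), and its share of mitochondrial reads was 2.06% ± 0.716 against 0.761% ± 0.139 (SD, n = 3, exact permutation p = 0.1, adjusted over 6 comparisons 0.2). The heavy-strand precursor runs through the same positions, and the end of mt-Nd5 at 13565 overlaps mt-Nd6. The library kit was stranded, per the labels' protocols, but the strand setting of the counting was not given in the sources used here, so reads of mt-Nd6 and of RNA opposite to it cannot be told apart.

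In mimic against mimic control, both mitochondrial rRNAs rose and 1 of 12 mRNAs was called. Among the 19 tested members 3 were called higher and 0 lower, where 15.8% of all genes tested were called higher and 18% lower. When libraries were instead scaled to total reads, all genes tested split into 3550 higher and 1734 lower, against 2375 and 2712 with TMM. The unadjusted p was under 0.05 for 5 members. The count of 0 lower held with edgeR under other scalings, with DESeq2 and with limma, and was 1 without the filter and 2 with the correction for GC content and length.

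mt-Rnr2 rose by 0.73 ± 0.11 (log2, SE; edgeR adjusted p = 5.04e-05), and it was 0.73 without mimic replicate 2 as well. It was called in the same direction in all 16 alternatives, between 0.44 and 0.81. mt-Rnr1 rose by 0.45 ± 0.14 (edgeR adjusted p = 0.0168) and by 0.47 without mimic replicate 2. The call of mt-Rnr1 was lost without mimic control replicate 3 (0.39), without mimic replicate 1 (0.38) and with the GC and length correction (0.14).

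mt-Nd5 stood at 639, 542 and 576 CPM in mimic control and 670, 722 and 697 CPM in mimic, and rose by 0.25 ± 0.08 (edgeR adjusted p = 0.0216). The call was lost without mimic control replicate 2 (0.19), mimic control replicate 3 (0.23), mimic replicate 2 (0.21) or mimic replicate 3 (0.24), and the GC and length correction turned the value to -0.056. mt-Nd2 (0.21 ± 0.08) and mt-Cytb (0.20 ± 0.09) missed the threshold, and both were called higher without mimic replicate 2, at 0.27 and 0.24, or without mimic control replicate 1, at 0.28 and 0.29. Removal of mimic replicate 2 left 4 members called higher and 0 lower. mt-Nd1 was at 0.03 ± 0.09, and the GC and length correction made it -0.29 and called it lower. No tRNA was called.

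In inhibitor against inhibitor control, 0 members were called higher and 0 lower with edgeR, as for 0% of all genes tested in the higher and 0% in the lower direction. The unadjusted p was under 0.05 for 3 of 19 members and for 447 of 15074 genes. DESeq2 and limma on FPKM also called 0 members. Without the filter on low counts, edgeR called 3 higher and 1 lower, beside 13 higher and 13 lower of 29112 genes. The 1 lower was mt-Nd6, and the 3 higher were the copied genes mt-Atp6, mt-Atp8 and mt-Co2. Of these copied genes, mt-Atp8 and mt-Co2 each had a single high inhibitor library, as given above. The rRNA genes were at 0.21 ± 0.16 for mt-Rnr1 and 0.13 ± 0.11 for mt-Rnr2. Among the protein genes not wholly copied, mt-Nd1, mt-Nd2, mt-Co1, mt-Nd4, mt-Nd5 and mt-Cytb lay between -0.03 and 0.08. mt-Nd6 stood at 59.7, 103 and 45.2 CPM in inhibitor control and 21.8, 53.1 and 20.7 CPM in inhibitor, groups that overlapped, at -1.12 ± 0.32 (edgeR adjusted p = 1).

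The difference between the mimic effect and the inhibitor effect was tested with an interaction contrast. It was called for 1 of 19 members, where 13.2% of all genes tested were called in either direction (698 higher and 1295 lower, or 1230 and 792 with total-read scaling). That member was mt-Rnr2, whose mimic effect exceeded its inhibitor effect by 0.61 ± 0.15 (log2, SE; edgeR adjusted p = 0.0119), and by 0.61 without mimic replicate 2. With the GC and length correction the difference for mt-Rnr2 was 0.36 and still called. Over 22 alternatives it ran from 0.36 to 0.68. The 652 nuclear genes with 33.1 to 40.3% G and C had a median of 0.28 in this contrast. For mt-Rnr1 the difference was 0.24 ± 0.21 and was not called. mt-Nd6 was at 1.31 ± 0.46 and not called, but was called without inhibitor control replicate 3 (1.53) or without inhibitor replicate 2 (1.89). It was also called without the filter on low counts and with a replicate block.

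In mimic control against high glucose, both rRNAs and all 5 tested tRNAs fell, while mRNAs moved in both directions. Among the 19 tested members 4 were called higher and 11 lower, where 39% of all genes tested were called higher and 39.9% lower. The protein genes split into 4 higher and 4 lower. With total-read scaling the median of all genes tested moved from 0.01 to -0.15, and mt-Nd2 and mt-Cytb were then no longer called.

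In that comparison mt-Rnr1 fell by 2.66 ± 0.14 (log2, SE; edgeR adjusted p = 7.70e-13) and mt-Rnr2 fell by 1.37 ± 0.11 (edgeR adjusted p = 2.35e-10). mt-Co1 stood at 2826, 3563 and 3579 CPM in high glucose, against 1498, 1264 and 1355 CPM in mimic control, and fell by 1.28 ± 0.08. mt-Nd5 fell by 1.46 ± 0.08, from 1428, 1700 and 1711 CPM to 639, 542 and 576 CPM. mt-Nd1 rose by 0.76 ± 0.09, from 802, 848 and 911 CPM to 1656, 1236 and 1453 CPM. For these 3 mRNAs the groups did not overlap, and their order was not the same in both groups: mt-Nd5 lay above mt-Nd1 in reads in high glucose and below it in mimic control.

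mt-Nd2 rose by 0.30 ± 0.08 and mt-Cytb by 0.29 ± 0.09, and the GC and length correction turned them to -0.058 and -0.040. mt-Co3, a copied gene, rose by 0.76 ± 0.17, and by 0.34 and not called with the correction. mt-Atp6 was at -0.44 ± 0.27 and was called lower without high glucose replicate 3 (-0.70) or with the correction (-0.88). mt-Co2 was at -0.46 ± 0.38 and was called lower with the correction (-0.90). mt-Nd4 fell by 0.27 ± 0.09 with overlapping groups, and was not called without mimic control replicate 2 (-0.17). mt-Nd6 fell by 2.60 ± 0.33 to 36.7, 43.2 and 32.3 CPM, below every high glucose library.

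In inhibitor control against high glucose, the rRNAs fell and most mRNAs rose. The rise of the mRNAs depended on whether GC content and length were corrected, which was done jointly and for neither alone. Among the 19 tested members 11 were called higher and 5 lower, where 40.1% of all genes tested were called higher and 39.3% lower. After the GC and length correction 3 were called higher and 10 lower, where 6086 of all genes tested were called higher and 5785 lower. Of the 12 protein genes, 10 rose and 1 fell without the correction, and 3 rose and 4 fell with it. The 3 that rose in both were mt-Nd1, mt-Nd4 and mt-Cytb.

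mt-Cytb stood at 1672, 1871 and 2082 CPM in high glucose, against 4924, 5247 and 5309 CPM in inhibitor control, and rose by 1.46 ± 0.09 (log2, SE; edgeR adjusted p = 5.65e-12), or 0.44 with the correction. mt-Nd1 rose by 1.40 ± 0.09, to 1993, 2260 and 2510 CPM, or 0.33 with the correction. mt-Nd4 rose by 1.18 ± 0.09, or 0.23 with the correction. mt-Nd2 rose by 1.03 ± 0.08, but was -0.014 with it. mt-Nd5 rose by 0.30 ± 0.08 and mt-Co1 by 0.22 ± 0.08, while with the correction they were -0.61 and -0.60 and both called lower. The call of mt-Co1 was also lost without high glucose replicate 1 (0.11) or inhibitor control replicate 2 (0.19).

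Among the copied genes mt-Co3 rose by 1.26 ± 0.16, mt-Nd4l by 1.91 ± 0.44, mt-Co2 by 0.90 ± 0.35 and mt-Atp8 by 1.52 ± 0.59, and none of these was called higher with the correction. The calls of mt-Co2 and mt-Atp8 were also lost without high glucose replicate 1 (0.79 and 1.38), without high glucose replicate 2 (0.87 and 1.39), and without inhibitor control replicate 3 for mt-Co2 (0.87) or replicate 1 for mt-Atp8 (1.27). mt-Atp6 was at 0.43 ± 0.26, was called higher without high glucose replicate 1 (0.85), and was at -0.73 and called lower with the correction.

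mt-Rnr1 fell by 5.45 ± 0.17 (edgeR adjusted p = 1.35e-16), or by 6.52 with the correction, and mt-Rnr2 fell by 1.60 ± 0.11, or by 2.47. mt-Nd6 fell by 1.71 ± 0.31 to 59.7, 103 and 45.2 CPM, and by 2.91 with the correction. The direction for these 3 members was thus the same in both.

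Mitochondrial genes are poor in G and C. The 13 protein genes and 2 rRNA genes held 31.9 to 41.1% G and C, and mt-Rnr2 (35.4%) lay below all but 0.0998% of the nuclear protein-coding genes tested. mt-Atp8 (31.9%) lay below all of them. The GC and length correction was learned from nuclear genes and held constant beyond the middle of its outermost bins. Its values for members at the low end of GC content are thus extrapolated. The same holds in length for the shortest members, among them the tRNA genes. The 652 nuclear genes with 33.1 to 40.3% G and C had a median log2 fold change of 0.84 in inhibitor control against high glucose, 0.06 in mimic control against high glucose, 0.30 in mimic against mimic control and 0.13 in high glucose against vehicle. The highest class, from 54.9% G and C, had medians of -0.50, -0.20, -0.17 and -0.08. A sequence-dependent difference between libraries and a change of the mRNAs cannot be told apart for the inhibitor pair.

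Inhibitor control against mimic control compared the negative controls themselves, since the pairs may have been handled apart. Among the 19 tested members 14 were called higher in inhibitor control and 1 lower, where 38.5% of all genes tested were called higher and 35.7% lower. The GC and length correction left 7 higher and 2 lower. With total-read scaling all genes tested split into 7028 higher and 4265 lower, against 5796 and 5385, and their median moved from 0.04 to 0.22.

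mt-Nd5 was higher by 1.76 ± 0.08 (log2, SE; edgeR adjusted p = 2.09e-13), mt-Co1 by 1.50 ± 0.08, mt-Nd4 by 1.45 ± 0.09 and mt-Cytb by 1.17 ± 0.09, and all 4 stayed called with the correction. mt-Nd1 was higher by 0.64 ± 0.09 and mt-Co3 by 0.50 ± 0.16, but they were -0.058 and -0.20 with the correction. mt-Rnr1 was lower, at -2.80 ± 0.16, and mt-Rnr2 missed the threshold at -0.23 ± 0.11 (-0.88 and called lower with the correction; called lower too without inhibitor control replicate 3, at -0.28, or mimic control replicate 3, at -0.30). mt-Nd6 was higher by 0.89 ± 0.32, and not called without inhibitor control replicate 2 (0.48), without mimic control replicate 3 (0.78), with DESeq2 (0.88) or with the correction (0.19). mt-Atp6 was higher by 0.87 ± 0.27 and not called without mimic control replicate 2 (0.64), and mt-Atp8 was at 1.14 ± 0.57 and called without mimic control replicate 1 (1.79).

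**Figure D4:**
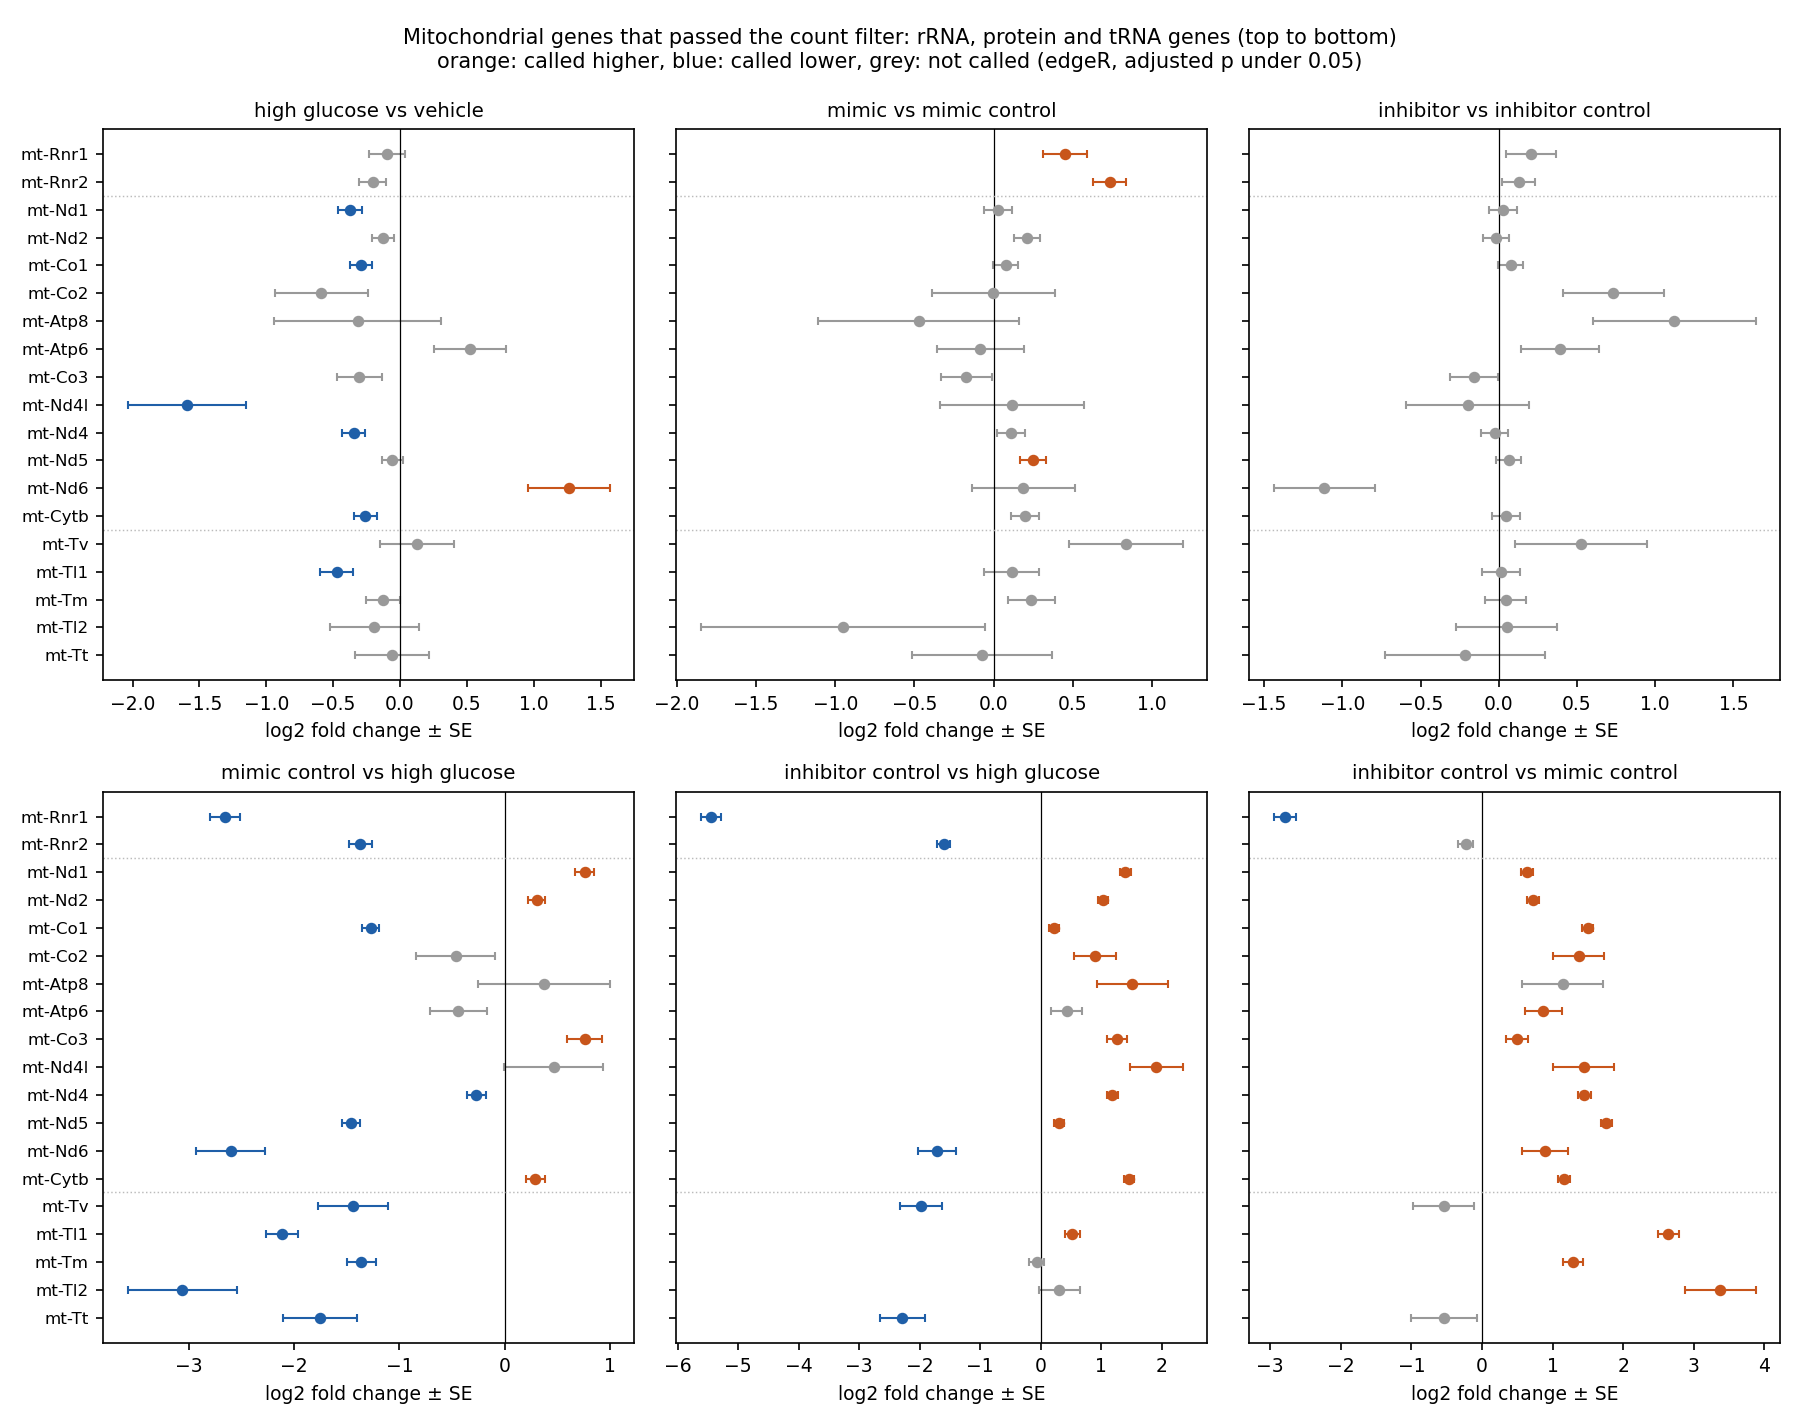
Log2 fold change with SE (horizontal axes, scales differ between panels) of the 19 tested members in each comparison, with rRNA, protein and tRNA genes from top to bottom. Members called higher are orange, called lower blue and not called grey; mt-Rnr1 lies at -5.45 in inhibitor control against high glucose and at 0.45 in mimic against mimic control.

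For 6 mRNAs, the change in mimic control against high glucose followed length. Across the 6 protein genes of the heavy-strand precursor that are not wholly copied (mt-Nd1, mt-Nd2, mt-Cytb, mt-Nd4, mt-Co1 and mt-Nd5), the change in mimic control against high glucose ran from 0.76 for mt-Nd1 (957 bases) to -1.46 for mt-Nd5 (1824 bases). Pearson's r between log2 length and log2 fold change was -0.97 across these 6 genes, which share their libraries and their precursor and are not independent. In inhibitor control against high glucose, which shares the high glucose libraries, it was -0.82. It was 0.32 in mimic against mimic control. mt-Nd4 and mt-Co1 are partly copied, and r rests on few genes. The order did not hold over all mRNAs tested, since mt-Nd6 (519 bases, other strand) was at -2.60 and the copied genes mt-Co2 (684 bases) and mt-Atp6 (681 bases) were at -0.46 and -0.44 in mimic control against high glucose.

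Nuclear protein-coding genes had a smaller trend of the same sign in mimic control against high glucose, with a median log2 fold change of 0.24 for the 583 genes under 1000 bases, 0.15 for the 2146 genes from 1000 to 2000 bases and -0.16 for the 5359 genes of 4000 bases or more. In inhibitor control against high glucose those medians were -0.04, -0.10 and 0.01. The part of RNA length, RNA quality or fragment selection in the order of the mitochondrial mRNAs was not tested.

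**Figure D5:**
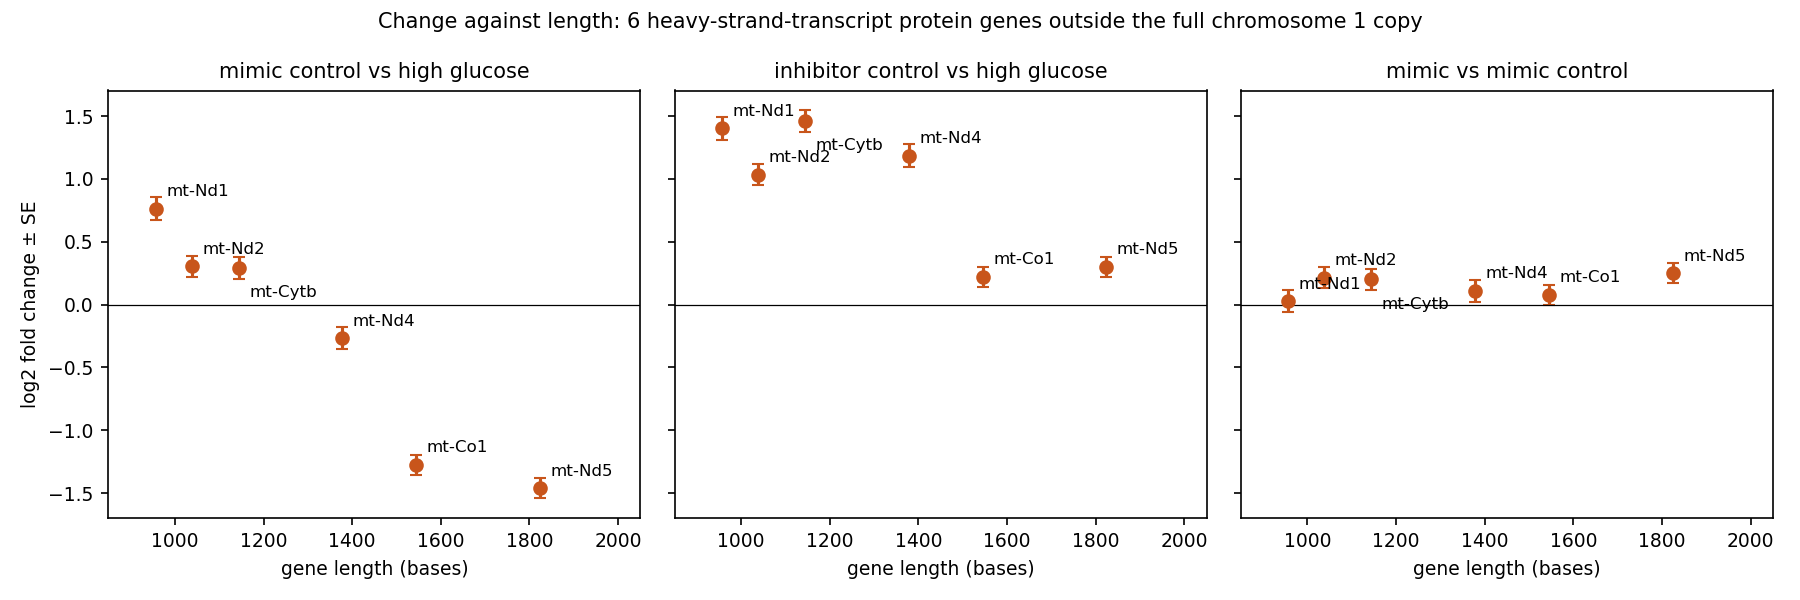
Log2 fold change with SE (vertical axis) against gene length in bases (horizontal axis) for 6 protein genes, in 3 comparisons. In mimic control against high glucose the values fall from 0.76 for mt-Nd1 to -1.46 for mt-Nd5, while in mimic against mimic control they lie between 0.03 and 0.25.

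The tRNA genes had few reads. Mature tRNAs are short and carry no long A tail, and the labels name an mRNA kit. Of the 15 analysed, 10 had 0 to 7 reads in any library and did not enter the test, where a count of 0 allows up to 3 reads. The 5 tested were mt-Tl1 and mt-Tl2 (leucine), mt-Tm (methionine), mt-Tv (valine) and mt-Tt (threonine). 3 of their genes are shown, mt-Tl1 and mt-Tl2 for their low levels in the mimic pair and mt-Tt for its low levels in all transfected groups. mt-Tl1 (chrM:2676-2750) follows mt-Rnr2 directly, mt-Tl2 (chrM:11671-11741) precedes mt-Nd5, and mt-Tt (chrM:15289-15355) follows mt-Cytb. All 3 are on the plus strand in GRCm39, and no base is capitalised.
mt-Tl1: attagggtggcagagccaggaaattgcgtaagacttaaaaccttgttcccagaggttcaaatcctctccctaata
mt-Tl2: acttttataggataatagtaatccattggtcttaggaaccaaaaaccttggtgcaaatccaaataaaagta
mt-Tt: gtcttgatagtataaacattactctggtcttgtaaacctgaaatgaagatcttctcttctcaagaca

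mt-Tl1 stood at 3.29, 3.41 and 3.60 CPM in high glucose, 5.54, 4.96 and 4.33 CPM in inhibitor control, 0.863, 0.636 and 0.865 CPM in mimic control and 0.912, 0.728 and 0.925 CPM in mimic. The mimic pair was below all other libraries. It fell by 2.12 ± 0.15 (log2, SE; edgeR adjusted p = 6.13e-11) in mimic control against high glucose and rose by 0.53 ± 0.12 in inhibitor control against high glucose, a rise that the GC and length correction turned to -0.090. mt-Tm fell by 1.36 ± 0.14 in mimic control and was at -0.07 ± 0.13 in inhibitor control, each against high glucose, and the latter was -0.73 and called lower with the correction.

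mt-Tl2 had 11, 14 and 14 reads in high glucose, 14, 17 and 17 in inhibitor control, 2, 1 and 1 in mimic control and 0, 2 and 0 in mimic. It fell by 3.06 ± 0.52 in mimic control against high glucose, and its value in mimic rests on 2 reads. mt-Tt had 14, 13 and 14 reads in high glucose, 2, 2 and 4 in inhibitor control and 5, 3 and 3 in mimic control. It fell by 2.29 ± 0.37 in inhibitor control and by 1.75 ± 0.35 in mimic control. mt-Tv, which lies between the rRNA genes, fell by 1.98 ± 0.35 and by 1.44 ± 0.33 in the same comparisons. All 5 tRNA genes were thus called lower in mimic control. In inhibitor control mt-Tt and mt-Tv were called lower, and with the correction mt-Tm and mt-Tl2 (-0.87) were called lower as well.

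The nuclear genes that serve the mitochondrial genome were counted from lists chosen with earlier results of these data known. These counts used TMM scaling without the GC and length correction. The part of scaling, GC content and length in them was not tested. Of 80 mitochondrial ribosomal protein genes tested, which encode the partners of mt-Rnr1 and mt-Rnr2, mimic control against high glucose had 65 called higher and 7 lower, beside 39% and 39.9% of all genes tested. The median log2 fold change was 0.92, against 0.01 over all genes tested. Inhibitor control against high glucose had 29 higher and 33 lower (median -0.02), beside 40.1% and 39.3% of all genes. Mimic against mimic control had 2 higher and 27 lower (median -0.12), beside 15.8% and 18% of all genes, while both rRNAs rose. Without mimic replicate 2 they were 1 higher and 20 lower. In high glucose against vehicle 7 were called higher and 2 lower, beside 12% and 12.2% of all genes.

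Mitochondrial transcription genes numbered 10, of which 7 were called higher and 0 lower in mimic control and 7 higher and 2 lower in inhibitor control, each against high glucose. The shares of all genes called higher and lower were 39% and 39.9% in mimic control and 40.1% and 39.3% in inhibitor control, and these hold for the lists below too. The RNA polymerase gene Polrmt, which transcribes the mitochondrial genome, rose by 0.96 ± 0.06 in mimic control against high glucose and fell by 0.45 ± 0.06 in mimic against mimic control (edgeR adjusted p = 1.62e-05), or by 0.45 without mimic replicate 2. Tfam, which packages and helps to transcribe mitochondrial DNA, stood at 29.0 ± 2.06 CPM in high glucose, against 60.5 ± 2.38 CPM in inhibitor control (SD, n = 3), and rose by 1.06 ± 0.06. In high glucose against vehicle, 0 of the 10 were called with edgeR, beside 12% higher and 12.2% lower of all genes tested.

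Of 23 genes for mitochondrial RNA processing and turnover, 16 were called higher and 5 lower in mimic control and 13 higher and 5 lower in inhibitor control, each against high glucose. Lrpprc, which stabilises mitochondrial mRNAs, rose by 2.04 ± 0.06 and 1.53 ± 0.06, and Trmt10c, part of the enzyme that cuts the ends of tRNAs out of the precursor, rose by 2.06 ± 0.11 and 1.47 ± 0.11. In mimic against mimic control 5 were called higher and 5 lower, beside 15.8% and 18% of all genes, and without mimic replicate 2 they were 3 and 5. Elac2, which cuts the other tRNA end, fell by 0.38 ± 0.04 (edgeR adjusted p = 2.66e-06), and Supv3l1, an RNA helicase of the mitochondrial RNA decay complex, fell by 0.31 ± 0.06. Without mimic replicate 2 they fell by 0.37 and 0.28.

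Of 21 genes for modification of mitochondrial rRNA and tRNA, 14 were called higher and 3 lower in mimic control and 15 higher and 3 lower in inhibitor control against high glucose. In mimic against mimic control 1 was called higher and 8 lower, beside 15.8% and 18% of all genes (2 and 5 without mimic replicate 2). Of 14 genes for replication and packaging of mitochondrial DNA, 10 were called higher in either control against high glucose, with 2 lower in mimic control and 3 lower in inhibitor control. Lonp1, a matrix protease, rose by 2.15 ± 0.06 in mimic control and 1.08 ± 0.06 in inhibitor control. Of 10 nuclear regulators of mitochondrial biogenesis, 7 were called higher and 3 lower in mimic control, and 5 higher and 1 lower in inhibitor control. Myc rose by 2.49 ± 0.07 and 1.84 ± 0.07 in these comparisons, while Ppargc1a, a coactivator of biogenesis genes, rose from 0.187 ± 0.0413 CPM to 1.63 ± 0.328 and 2.87 ± 0.245 CPM (SD, n = 3). No gene of any of these lists was called in inhibitor against inhibitor control, as for 0% of all genes tested in either direction.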

How the data were processed

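RNA of 18 libraries in 6 groups of 3 was analysed. Per the labels' protocols, stranded mRNA libraries gave paired reads of 150 bases, reads with more than 2 N bases and reads under 16 nt were discarded, FASTX-Toolkit 0.0.13 trimmed adaptors, and HISAT2 aligned reads to GRCm39 with 4 mismatches. The authors deposited raw counts of uniquely mapped reads per gene, and FPKM values, per the labels' protocols. DESeq2 appears in the submitters' processing notes with no role. For the counting program, annotation release and strand setting, the entry is: not given in the sources used here.

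Counts were filtered by group (minimum count 10, minimum total 15), scaled by TMM and tested with edgeR 4.0.16 in R 4.3.3, with 1 quasi-likelihood model over all 18 libraries (12 residual degrees of freedom) and Benjamini-Hochberg adjustment over 15074 genes. Called means an adjusted p under 0.05, and CPM values are TMM-scaled. Shares and ratios were compared with two-sided exact permutation tests. Nuclear copies were found with BLAST 2.17.0 (identity of at least 90%). Alternatives were other scalings, no filter, DESeq2 1.42.0, limma 3.58.1 on log2(FPKM + 1) and log2(FPKM + 0.1), the compared groups alone, a replicate block, a correction for GC content and length learned in 20 bins, and leaving out each library. The list counts without mimic replicate 2 were added after seeing the data. The test was checked on simulated data. The named members were both rRNA genes, all protein genes and the tRNA genes that passed the filter; from each supporting list, a few were described out of up to 4 called members per comparison with the largest changes, and pseudogenes of the chromosome 1 copy were named for their single high libraries. Members and lists were chosen with earlier results of these data known. A count of 0 allows up to 3 reads, which covers counting error only. Symbols and positions came from GENCODE on GRCm39.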

Additional observations from a re-analysis of the deposited data

Results flagged for a closer look

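The mimic effect on mt-Rnr2 exceeded the inhibitor effect by 0.61 ± 0.15 (log2, SE) in a test of the difference itself (edgeR adjusted p = 0.0119). It was also 0.61 without mimic replicate 2, the library with macrophage markers. With the correction for GC content and length it was 0.36 (edgeR adjusted p = 0.0222), the lowest of 22 alternatives. Nuclear genes with 33.1 to 40.3% G and C had a median of 0.28 in this contrast, and the part of GC content was not tested. The mimic effect was 0.73 and the inhibitor effect 0.13, and the mimic libraries lay above all 3 mimic control libraries.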

How the results depend on the processing

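Of 2223 values of single members under alternatives, 2006 kept their sign and side of the threshold, 49 lost a call and 64 gained one. Another 104 changed sign, 91 of them called under neither setting and 13 called under one or both, and those 13 all arose with the correction for GC content and length. Their values in inhibitor control against high glucose were -0.73 for mt-Atp6, -0.60 for mt-Co1, -0.24 for mt-Co2, -0.014 for mt-Nd2, -0.61 for mt-Nd5, -0.090 for mt-Tl1 and -0.87 for mt-Tl2. In mimic control against high glucose they were -0.058 for mt-Nd2 and -0.040 for mt-Cytb, in inhibitor control against mimic control -0.058 for mt-Nd1 and -0.20 for mt-Co3, and in mimic against mimic control -0.29 for mt-Nd1 and -0.056 for mt-Nd5. Counts of called members also moved with this correction. In mimic against mimic control it gave 1 higher and 2 lower, in mimic control against high glucose 1 higher, in inhibitor control against high glucose 3 higher and 10 lower, and in inhibitor control against mimic control 7 higher and 2 lower. All 15074 genes tested gave 1614 higher and 2174 lower, 5817 higher, 6086 higher and 5785 lower, and 5939 higher and 5254 lower, in the same order.

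Without the filter, the calls were 2 higher in high glucose against vehicle, 6 higher and 1 lower in mimic against mimic control, 3 higher and 1 lower in inhibitor against its control, 2 lower in inhibitor control against mimic control, and 5 for the mimic effect minus the inhibitor effect. All 29112 genes then gave 1730 higher, 2486 higher and 2618 lower, 13 higher and 13 lower, 5588 lower, and 1201 higher with 1372 lower, in the same order. Total-read scaling gave 5 higher in mimic against mimic control and 2 higher in mimic control against high glucose. All 15074 genes tested gave 3550 and 5025 higher, in the same order. In mimic against mimic control, limma gave 5 (pseudocount 1) and 6 (pseudocount 0.1) higher, beside 2830 and 3067 of all genes. In mimic control against high glucose it gave 2 higher with either, beside 4967 and 5069 of all genes. DESeq2, its size factors, TMM of nuclear genes and the compared groups alone each gave 2 lower in inhibitor control against mimic control. All genes tested then gave 5288, 5422, 5465 and 5468 lower, in the same order. Leaving out 1 library gave 1 to 2 higher and 4 to 8 lower in high glucose against vehicle, 1 to 5 higher in mimic against mimic control, 1 to 2 lower in inhibitor control against mimic control and 1 to 2 calls for the difference of effects.

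Shares computed from FPKM differ in denominator. The mitochondrial share difference was then -0.405 points (high glucose minus vehicle), 0.368 (mimic minus control), 0.144 (inhibitor minus control), -1.14 (mimic control minus high glucose), 1.91 (inhibitor control minus high glucose) and 3.05 (inhibitor control minus mimic control). The log2 ratio of rRNA to protein differed by -2.07, -4.41 and -2.34 in the last 3. The mt-Nd6 share differed by 3.03 (high glucose minus vehicle), -0.531 (inhibitor minus control), -3.80 (mimic control minus high glucose) and -3.90 (inhibitor control minus high glucose). The tRNA share differed by -0.0530 (high glucose minus vehicle), 0.0168 (mimic minus control), -0.834, -0.440 and 0.393 (last 3). Without the rRNA genes, the mitochondrial share differed by -0.285 and 0.757 and the tRNA share by -0.0569 and -0.0351 in mimic control and inhibitor control against high glucose. The cause of these shifts was not tested.

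Replicate numbers did not pair the libraries in the same way across comparisons. Same-numbered libraries correlated at -0.0638, -0.0905 and -0.174 in their deviations for high glucose and vehicle. For inhibitor control and high glucose they correlated at 0.103, 0.0479 and 0.0579, against -0.0924 to 0.0378 for libraries of unlike number. In the other comparisons same-numbered libraries lay between -0.0292 and 0.0429. A replicate block gave 2 calls for the difference of effects, adding mt-Nd6 at 1.34, and lost the call of mt-Cytb in high glucose against vehicle (-0.26, adjusted p = 0.0525, in a range from 0.000893 to 0.185 over its alternatives). Of the tRNA genes, 10 had at most 7 reads in any library, too few to test.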
